A study of Mus musculus with 4 samples.

Results

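The genes described here encode the proteasome, the protease that degrades proteins marked with ubiquitin chains, together with the chaperones, activators and inhibitor that share its gene naming. They were taken as every row of the deposited expression table whose symbol starts with Psm, followed by a letter from a to f and a number. This rule found 43 genes among 24689. Each of the 6 classes used below was assigned from the known role of the subunit: 7 genes of the alpha ring, 11 of the beta ring, 6 ATPases, 11 non-ATPase subunits of the base and lid, 3 chaperones of the base, and 5 activators and inhibitor. They lie on 15 chromosomes, so the set is scattered over the genome. No row carried the symbol Psma8, so it was not analysed here.

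RNA was sequenced from 2 libraries of HT-22 cells with induced Pja2, titled Pja2-pb, and from 2 control libraries, titled WT and called uninduced in their characteristics. All 4 came from passages 21 to 24 of HT-22, an immortalized mouse line of hippocampal origin, grown in mouse Eagle's medium. Pja2 encodes a RING-type ubiquitin ligase. The labels give neither the means of induction nor whether the induced cells are a clone of the control line, so induction and a difference between lines cannot be told apart. They do not say that replicates were separate cultures either, so the p-values measure only the spread between these libraries.

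The proteasome is built from a core particle, in which stacked rings of alpha and beta subunits enclose the proteolytic sites, and a regulatory particle that caps it. The cap binds ubiquitin chains, removes them, and unfolds and feeds in the substrate with its ring of ATPases. Transcription of most subunit genes is known to be driven together by Nfe2l1, a membrane-bound transcription factor that is released and activated when proteasome capacity falls short. In cells exposed to interferon, and constitutively in many immune cells, 3 catalytic beta subunits are replaced by inducible counterparts to give the immunoproteasome. In neurons, proteasomal degradation is known to take part in synaptic remodelling.

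Reads assigned to genes numbered 30080376 and 35262653 in the induced libraries, against 25787452 and 31010351 in the control libraries. Levels are given as normalized reads, the deposited values taken back from the log2 scale, and log2 fold changes are differences of mean log2(normalized reads + 1), induced minus control. Pja2 had 54830 and 54244 normalized reads in induced cells, against 6167 and 5881 in control cells (log2 fold change 3.18, SE 0.06, limma adjusted p = 6.36e-05). Every induced library lay above both controls, as the labels state. The label hippocampal neuron was checked against 11 neuronal markers, of which 7 were matched. Their summed level was 3499 and 4002 normalized reads in induced cells and 4311 and 3566 in control cells, most of it from Dlg4, Syn1 and Tubb3. On the same list, Slc17a7, Gria1 and Prox1 had at most 6.49 in any library. Camk2a had 107 and 23.2 in induced cells and 108 and 30.5 in control cells. The fibroblast list of Col1a1, Col1a2, Pdgfra and Lum summed to 264890 and 263740 in induced cells and 283440 and 250640 in control cells. Nearly all of it came from the collagen genes. Pdgfra had 9565 and 9890 in induced cells and 10809 and 9270 in control cells. Lum had 0 and 2.78 in induced cells and 3.77 and 13.7 in control cells. In bulk RNA, fewer cells of a type and less RNA per cell cannot be told apart.

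No proteasome gene passed the test between induced and control cells. Nfe2l1, the factor known to drive transcription of most of them, fell to 0.262 times its control level. A link between its fall and the subunit genes was not tested. Among the 41 members tested, limma called 0 higher and 0 lower at an adjusted p under 0.05, where 2.08% of all 13276 tested genes were called higher and 1.34% lower, 3.42% in all. At an unadjusted p under 0.05 there were 10 members higher and 2 lower, 12 of 41 in all, against 10.3%, 8.78% and 19.1% of all tested genes. Limma voom on the recovered reads also called 0 members, against 3.43% of all genes. The median log2 fold change of the tested members was 0.08, and 30 of them lay above 0. Over all tested genes the median was 0.0025, and 50.4% lay above 0. Both induced libraries lay above both controls in 17 members, against 26.2% of all tested genes, and below both in 3, against 25.1%.

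**Figure D1:**
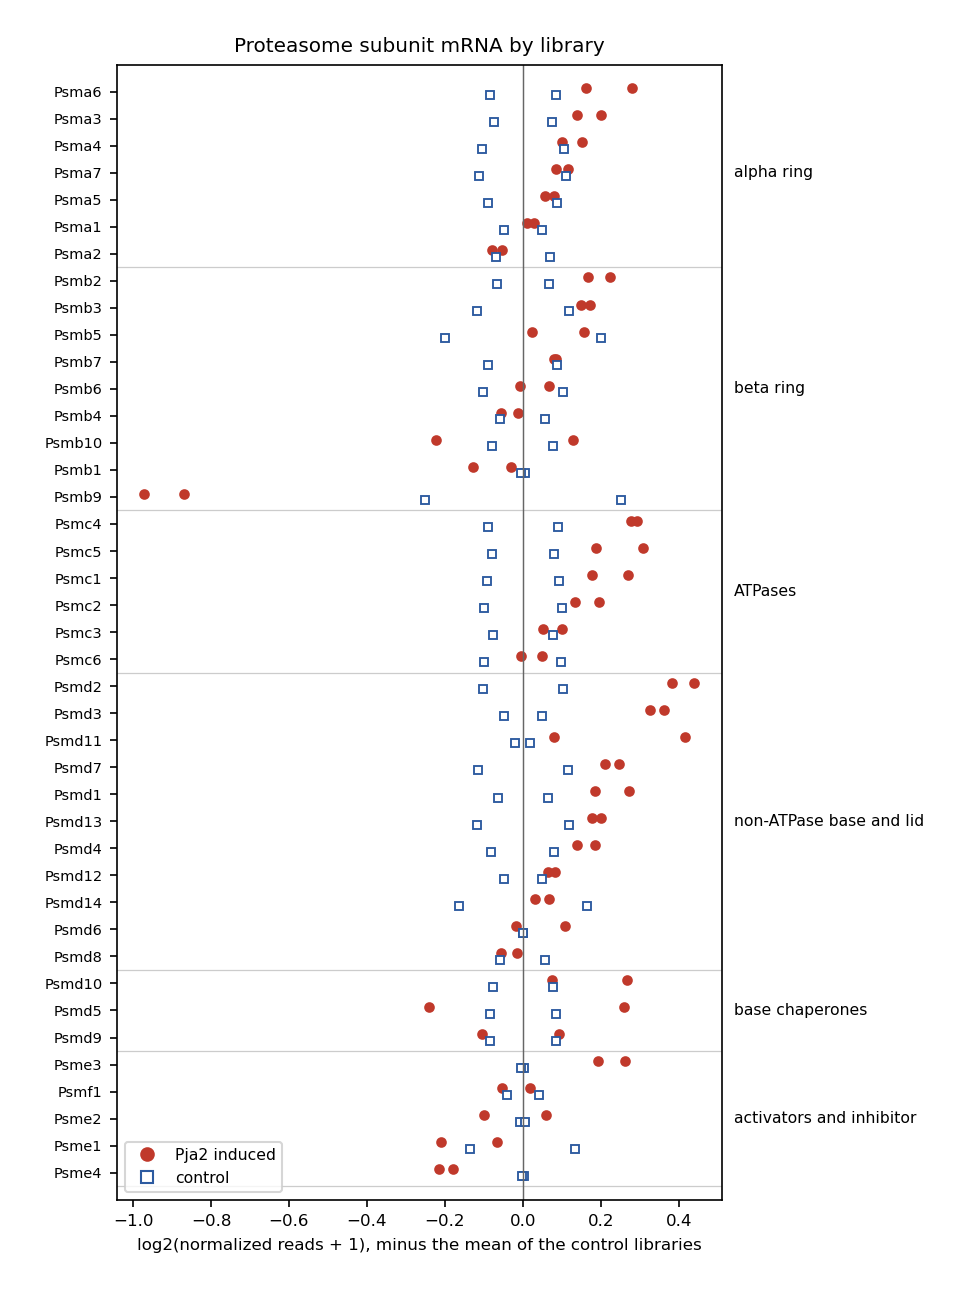
Each row is a tested proteasome gene, grouped by role, and the horizontal axis gives log2(normalized reads + 1) minus the mean of the control libraries. Filled circles are the 2 Pja2 induced libraries and open squares the 2 controls. Most circles of the ATPases and of the non-ATPase subunits lie to the right of the squares, those of Psmb9 lie near -0.9, and none of the 41 genes passed the test.

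The control libraries differed from each other in these genes. Control replicate 1 was below control replicate 2 in 35 of 41 tested members, with a median difference of -0.16 on the log2 scale, whereas this held for 51.5% of all tested genes, with a median of -0.0072. The induced libraries were closer: replicate 1 was below replicate 2 in 18 of 41 members, with a median difference of 0.02. Tested members together held 0.519% and 0.517% of all reads in induced cells, against 0.454% and 0.496% in control cells. The summed share in both induced libraries was thus above both controls, and control replicate 1 was the lowest of the 4. Without control replicate 1 the members' median log2 fold change was -0.0023, with 20 above 0 and 21 below. Without control replicate 2 it was 0.21, with 36 above and 5 below.

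**Figure D2:**
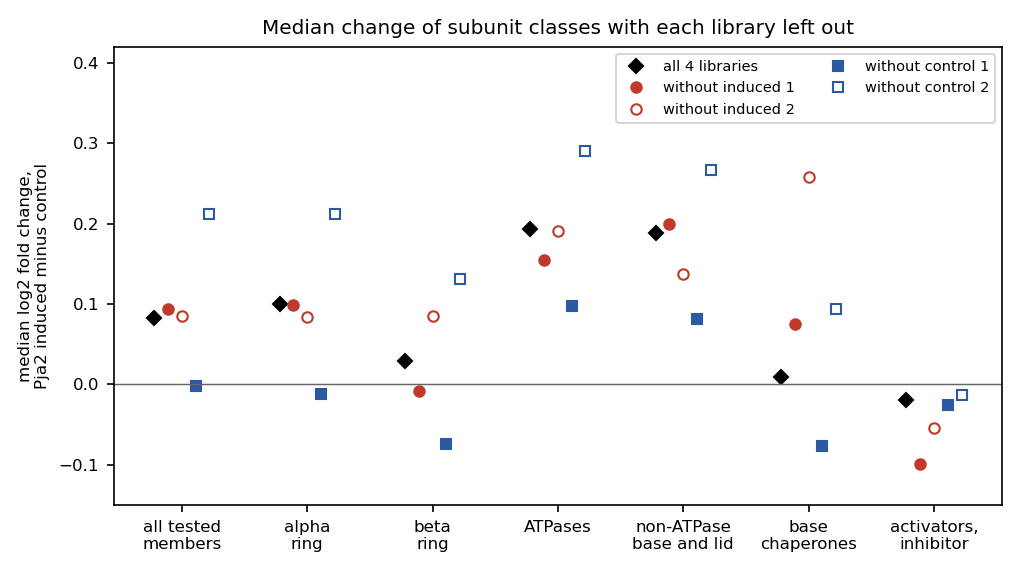
Median log2 fold change, Pja2 induced minus control, of all tested members and of each class, with all 4 libraries (diamonds) and with each library left out in turn. Leaving out control replicate 1 puts the median of all members at -0.0023 and leaving out control replicate 2 puts it at 0.21, while the medians of the ATPases and of the non-ATPase subunits stay above 0 in each case.

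The regulatory particle held the members with the highest fold changes. Its 17 tested subunits among the members had 16 log2 fold changes above 0, with a median of 0.19 and 0 called. Adrm1 and Sem1, which lack a Psm symbol, are counted with the associated proteins of the particle (0.28 and 0.0076, neither called). The 14 constitutive core subunits Psma1 to Psma7 and Psmb1 to Psmb7 had 11 above 0, with a median of 0.09 and 0 called. Regulatory particle subunits took 0.270% and 0.278% of reads in induced cells, against 0.224% and 0.249% in control cells. Core subunits took 0.184% and 0.179% in induced cells, against 0.167% and 0.184% in control cells. The groups did not overlap for the regulatory particle and overlapped for the core. The difference between the particles was not tested, since their genes are not replicates.

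Among the non-ATPase subunits, Psmd2, which encodes the large scaffold subunit of the base that binds shuttle factors and ubiquitin-like domains, had 16931 and 17604 normalized reads in induced cells, against 12096 and 13937 in control cells. Both induced libraries were above both controls, and the controls were further apart than the induced libraries. Its log2 fold change was 0.41 (SE 0.08, 95% interval 0.21 to 0.62, limma adjusted p = 0.0644), the highest among the 41 members, and it was called without control replicate 2 (0.51, adjusted p = 0.0369), where 1.46% of all tested genes were called higher. Psmd3, a structural subunit of the lid, had 7199 and 7392 in induced cells and 5552 and 5947 in control cells. Its groups did not overlap either, with a log2 fold change of 0.34 (SE 0.06, 95% interval 0.18 to 0.50, limma adjusted p = 0.0544) and an adjusted p between 0.0535 and 0.211 over the alternatives tried.

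Psmd1, the other large base subunit, had 10448 and 11092 normalized reads in induced cells and 8792 and 9603 in control cells (log2 fold change 0.23, limma adjusted p = 0.171). Induced and control libraries were again apart. Psmd11, a lid subunit that bridges to the base and the core, had 3905 and 4936 in induced cells, against 3648 and 3745 in control cells. Its induced libraries differed from each other by more than the groups did at their nearest, and the log2 fold change of 0.25 had an adjusted p of 0.319 by limma. Without induced replicate 1 it was 0.42 and without induced replicate 2 it was 0.079. The lid subunits Psmd7 and Psmd13 and the ubiquitin receptor Psmd4 had log2 fold changes of 0.23, 0.19 and 0.16, each with groups that did not overlap. Psmd7 is the partner of the deubiquitinase subunit Psmd14, which itself had 2353 and 2412 in induced cells, against 2056 and 2582 in control cells, so that both induced values lay between the controls. The structural lid subunits Psmd12 and Psmd6 had log2 fold changes of 0.07 and 0.05. Psmd8, another lid subunit, was the lowest of the class with 2680 and 2606 in induced cells and 2603 and 2821 in control cells (log2 fold change -0.04, limma adjusted p = 0.829), with overlapping groups.

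All 6 ATPase genes, whose products form the unfolding ring at the foot of the cap, had a log2 fold change above 0, with a median of 0.19, and 0 were called. Psmc4 was the highest of them, with 3233 and 3202 normalized reads in induced cells, against 2480 and 2810 in control cells. Its groups did not overlap, and its log2 fold change was 0.29 (SE 0.08, 95% interval 0.08 to 0.49, limma adjusted p = 0.149). Psmc5, Psmc1 and Psmc2 followed with 0.25, 0.22 and 0.16, also without overlap, and Psmc3 with 0.08. Psmc6 was the lowest, with 4176 and 4025 in induced cells and 3770 and 4322 in control cells. Both of its induced values lay between the controls, and the log2 fold change was 0.02 (limma adjusted p = 0.910). The median of the class was 0.10 without control replicate 1 and 0.29 without control replicate 2, so it was lower or higher depending on which control library was kept. For the non-ATPase subunits these medians were 0.08 and 0.27, against 0.19 with all libraries.

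Alpha subunits form the outer rings of the core and the gate through which substrates enter. Psma6 had 4865 and 4487 normalized reads in induced cells, against 3778 and 4253 in control cells, the highest log2 fold change of the class at 0.22 (95% interval 0.01 to 0.43, limma adjusted p = 0.242). Its induced libraries were above both controls. Psma3 had a log2 fold change of 0.17, also without overlap, and Psma4, Psma7, Psma5 and Psma1 had 0.13, 0.10, 0.07 and 0.02 with overlapping groups. Psma2 had 4051 and 4126 in induced cells, against 4079 and 4496 in control cells, and was the only alpha subunit gene below 0 (log2 fold change -0.07, limma adjusted p = 0.663), with groups that overlapped. The class median was 0.10 with all libraries, -0.011 without control replicate 1 and 0.21 without control replicate 2.

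Of the beta ring genes, Psmb2 had 3545 and 3682 normalized reads in induced cells, against 3013 and 3305 in control cells. The groups did not overlap, and the log2 fold change of 0.20 was the highest of the class (95% interval 0.01 to 0.38, limma adjusted p = 0.240). The non-catalytic subunits Psmb3, Psmb4 and Psmb1 had log2 fold changes of 0.16, -0.03 and -0.08. In Psmb1 both induced libraries were below both controls, and in Psmb3 above both. Over the 14 constitutive core genes, the widest 95% interval of the fold was that of Psmb5, from 0.833 to 1.36, and the intervals of the other 13 lay within it.

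The catalytic sites of the core sit in Psmb6, Psmb7 and Psmb5, which cleave after acidic, basic and hydrophobic residues. Psmb6 had 4079 and 3872 normalized reads in induced cells, against 3628 and 4181 in control cells. Psmb7 had 3709 and 3698 in induced cells and 3290 and 3718 in control cells. Psmb5 had 1755 and 1599 in induced cells and 1369 and 1808 in control cells. For each of the 3 the induced values lay between the controls, and the log2 fold changes were 0.03, 0.08 and 0.09 (limma adjusted p = 0.886, 0.621 and 0.780).

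Their inducible counterparts were scarce, and Psmb9 had the lowest log2 fold change of all tested members. Psmb9, which replaces Psmb6 in the immunoproteasome, had 122 and 131 normalized reads in induced cells, against 285 and 201 in control cells. Both induced libraries were below both controls, and the controls were further apart than the induced libraries. These values rest on 112 and 141 reads in induced cells and 227 and 191 in control cells. The log2 fold change was -0.92 (SE 0.21, 95% interval -1.45 to -0.39), short of the threshold by limma (adjusted p = 0.0909, and 0.0647 to 0.236 over the alternatives tried). Its value was -0.67 without control replicate 1 and -1.17 without control replicate 2. Psmb9 lies on chromosome 17 beside Psmb8 and shares 212 bases of exon with Tap1, its neighbour, and the kit does not mark strand, so reads from those bases cannot be assigned to either gene with certainty.

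Psmb10, which replaces Psmb7, had 508 and 398 normalized reads in induced cells, against 440 and 491 in control cells. The induced libraries lay on either side of the controls (log2 fold change -0.05, limma adjusted p = 0.894). Psmb8, which replaces Psmb5, was near the detection limit, with 4 and 0 reads in induced cells and 0 and 15 in control cells, and was not tested. Psmb11, the beta subunit of thymic cortical epithelium, had 0 reads in both induced libraries and 3 and 2 in the controls, no more than the 3 reads per library that a count of 0 allows, and was not tested either. Within a library, Psmb9 stood at 2.99% and 3.38% of the normalized reads of Psmb6 in induced cells, against 7.87% and 4.81% in control cells. Psmb10 stood at 13.7% and 10.8% of Psmb7 in induced cells, against 13.4% and 13.2% in control cells. An exact two-sided permutation test of the log2 ratio over the 4 libraries gave p = 0.333 for Psmb9 over Psmb6 (difference -0.95), the smallest p this design allows, and 1 for Psmb10 over Psmb7 (difference -0.13). Psmb8 over Psmb5 gave an unadjusted exact p of 0.667. After adjustment over the 3 pairs none was under 0.05, a level that 2 against 2 libraries cannot reach.

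**Figure D3:**
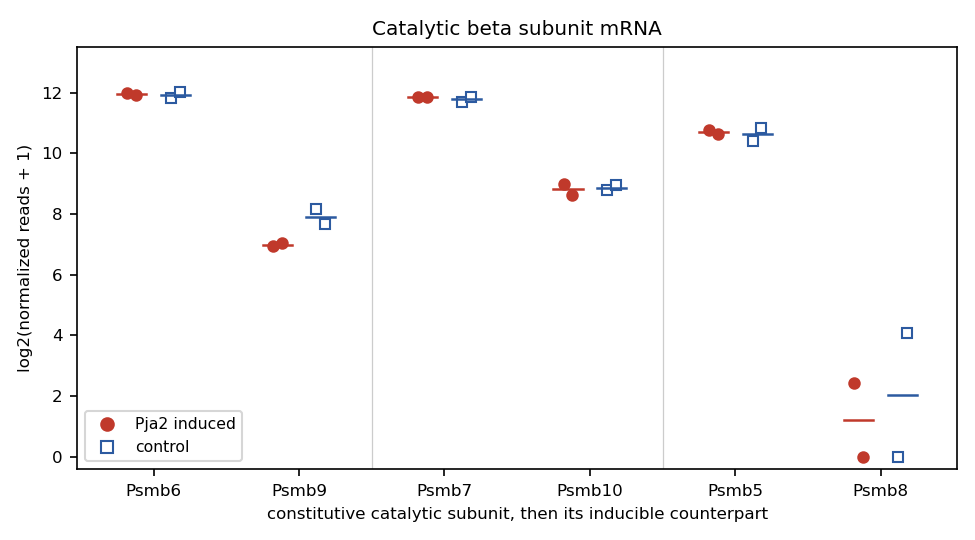
Log2(normalized reads + 1) of the catalytic beta subunit genes, each constitutive subunit followed by the inducible one that replaces it, with Pja2 induced libraries (circles) left of controls (squares) and a bar at each group mean. Psmb9 lies lower in both induced libraries than in both controls, and Psmb8 is at 0 in 1 library of each group.

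The immunoproteasome is a feature of immune cells, so markers of such cells are given beside it. The 5 markers of microglia and macrophages summed to 197 and 230 normalized reads in induced cells, against 153 and 140 in control cells. Most of this came from Cd68 and Aif1, neither of them called, while Cx3cr1 and Csf1r had at most 8.35 in any library. The pan-leukocyte gene Ptprc was at 0 in both induced libraries and at 6.29 and 0 in the controls. The part of such cells in the Psmb9 values was not tested. Genes that load peptides onto class I molecules lie beside Psmb8 and Psmb9 or act with their products. Of 8 tested antigen processing genes 0 rose and 0 fell, 3 lay above 0, and the median log2 fold change was -0.13. Tapbp, which bridges the peptide transporter to class I molecules, had 11634 and 11350 normalized reads in induced cells, against 14172 and 13814 in control cells. The groups did not overlap (log2 fold change -0.28, limma adjusted p = 0.0636). Irf1, an interferon-responsive factor known to drive immunoproteasome genes, had 2368 and 2335 in induced cells and 1755 and 1293 in control cells. Irf1 had a log2 fold change of 0.64 (limma adjusted p = 0.0878), opposite in sign to that of Psmb9, to which a link was not tested. It was called without control replicate 1 (0.86, limma adjusted p = 0.0216) and not without control replicate 2 (0.42, adjusted p = 0.0801) or without induced replicate 1 or 2 (adjusted p = 0.186 and 0.178). The peptide transporter gene Tap1, named after its values were seen, had a log2 fold change of -0.22 (limma adjusted p = 0.335).

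The activators and the inhibitor attach to the ends of the core in place of the cap or modulate it. Psme3, the nuclear activator subunit, had 4356 and 4153 normalized reads in induced cells, against 3642 and 3623 in control cells. Its groups did not overlap, and the log2 fold change was 0.23 (SE 0.06, 95% interval 0.07 to 0.38, limma adjusted p = 0.139). Psme4, the large activator known for work on histones, had 5546 and 5680 in induced cells, against 6448 and 6425 in control cells. Both induced libraries were below both controls (log2 fold change -0.20, SE 0.06, 95% interval -0.34 to -0.05, limma adjusted p = 0.153). In both genes the replicates of each group lay close together, and control replicate 1 was not the lower control. The interferon-inducible pair Psme1 and Psme2 had log2 fold changes of -0.14 and -0.02 and the inhibitor gene Psmf1 had -0.02, all with overlapping groups. Psme2 has a close copy, Psme2b, with 480 and 497 normalized reads in induced cells and 453 and 501 in control cells, so reads can be split between them.

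The base chaperones Psmd10, Psmd9 and Psmd5 help to assemble the ATPase ring. Psmd10 had 1395 and 1222 normalized reads in induced cells, against 1099 and 1224 in control cells. Psmd9 had 1090 and 1249 in induced cells and 1104 and 1242 in control cells. The groups overlapped in both, with log2 fold changes of 0.17 and -0.0052 (limma adjusted p = 0.435 and 0.983). Psmd5 had the widest spread between the induced libraries among the 3, with 2576 and 1822, against 2030 and 2284 in control cells (log2 fold change 0.01, limma adjusted p = 0.981).

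Levels of different subunits can be set side by side per length of transcript, taken from GENCODE M21 principal transcripts, which 38 of the 41 tested members have. The 14 constitutive core subunits ran between 1181 normalized reads per kb for Psma3 and 5627 for Psmb4 in induced cells, a 4.77-fold range, and between 1051 for Psma3 and 5768 for Psmb4 in control cells, a 5.49-fold range. The order at both ends was the same in both groups. ATPases covered a narrower range, 1835 to 3047 per kb in induced cells and 1811 to 2613 in control cells, with Psmc6 lowest and Psmc1 highest in each. Psmd2 stood at 5832 per kb in induced cells, the highest level of the 38, and at 4396 in control cells, where Psmb4 was highest. At the low end were the inhibitor gene Psmf1, at 224 per kb in induced cells and 227 in control cells, and Psmb10, at 345 and 355. Psmb9 was the lowest of the tested members, at 93.4 per kb in induced cells and 180 in control cells. These levels depend on the transcript chosen for each gene.

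Nfe2l1 had 2429 and 2843 normalized reads in induced cells, against 10177 and 9941 in control cells. The induced libraries were far below both controls, and the replicates of each group lay close together. It fell by 1.94 on the log2 scale (SE 0.09, 95% interval -2.16 to -1.72, limma adjusted p = 0.00172), to 0.262 times the control mean. The call held under each of the 11 alternatives tried, with an adjusted p between 0.000479 and 0.00704, and its exons overlap no other gene in GENCODE M21. Of the 9 tested genes of this factor and its control, Nfe2l1 was the 1 that fell and 0 rose. Nfe2l2, the related factor of the oxidative stress response, had 5067 and 4952 in induced cells and 4328 and 4441 in control cells, without overlap and short of the threshold (log2 fold change 0.19, limma adjusted p = 0.172). The enzymes that process the Nfe2l1 protein, Ngly1, which removes its sugars, and Ddi2, the protease that cleaves it, had log2 fold changes of -0.29 and -0.03 (limma adjusted p = 0.290 and 0.870), and both were named after their values were seen. Beside this fall, the subunit genes of the core had a median log2 fold change of 0.09 and those of the regulatory particle 0.19, and these were -0.015 and 0.08 without control replicate 1 and 0.19 and 0.27 without control replicate 2. The Nfe2l1 protein and its activity were not measured, and a link between the fall of its mRNA and the subunit genes was not tested.

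Nfe2l1 is known to bind antioxidant response elements with small Maf proteins, so promoters of members at the ends of the range, and of Psmd1 and Psmd12, are shown. Psmd2 had the highest fold change of the members and Psmb9 the lowest. Psmd1 is the other large base subunit, and Psmd12 holds 2 matches, as does Psmc6, which is not shown. Each line gives the 250 bases before the start site, from RefSeq on GRCm38.p6. Capitals mark a match to TGACNNNGC or TGAGNNNGC, the core of the element, on either strand, with the letters of the minus strand match shown as they read on the gene's strand.
Psmd2 promoter, chr16:20651402-20651651, plus strand: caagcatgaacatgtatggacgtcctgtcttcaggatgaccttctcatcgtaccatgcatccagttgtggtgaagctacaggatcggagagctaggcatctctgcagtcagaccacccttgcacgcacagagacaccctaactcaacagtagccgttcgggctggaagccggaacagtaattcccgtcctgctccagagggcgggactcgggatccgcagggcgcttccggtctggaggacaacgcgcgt
Psmd1 promoter, chr1:86064369-86064618, plus strand: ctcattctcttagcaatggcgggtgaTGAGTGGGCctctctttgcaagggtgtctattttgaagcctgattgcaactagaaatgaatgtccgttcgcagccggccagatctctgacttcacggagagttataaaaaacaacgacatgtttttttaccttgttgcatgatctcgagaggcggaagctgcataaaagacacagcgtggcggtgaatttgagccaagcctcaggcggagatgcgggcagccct
Psmd12 promoter, chr11:107479278-107479527, plus strand: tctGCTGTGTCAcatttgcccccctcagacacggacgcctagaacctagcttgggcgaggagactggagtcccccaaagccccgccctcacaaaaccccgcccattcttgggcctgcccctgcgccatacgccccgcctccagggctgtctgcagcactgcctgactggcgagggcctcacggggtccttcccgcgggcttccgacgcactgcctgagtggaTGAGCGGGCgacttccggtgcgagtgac
Psmb9 promoter, chr17:34187331-34187580, minus strand: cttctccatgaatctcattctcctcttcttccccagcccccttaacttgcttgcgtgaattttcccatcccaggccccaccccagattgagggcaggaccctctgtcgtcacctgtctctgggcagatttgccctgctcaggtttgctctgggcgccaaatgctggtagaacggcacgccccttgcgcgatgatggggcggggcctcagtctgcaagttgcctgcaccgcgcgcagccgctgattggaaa

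Promoters were found for 37 of the 43 members. Windows of 300 bases, 250 before and 50 after the start site, were searched on both strands, and the forms differ in the base after TGA, so that a stretch on a given strand cannot match both. A match to either form was present in 15 of the 37 members, or 40.5%, compared with 30.8% of 27025 genes with a promoter and 35.8% of those among them that were tested. Among tested members, 13 of the 15 with a match lay above 0 (median log2 fold change 0.09), as did 12 of the 20 without a match (median 0.05). Of the 6 tested members for which no promoter was found, 5 lay above 0, with a higher median of 0.14. Psmd2 and Psmb9, at either end of the range, have none in this window. The CCAAT motif, searched in the same way, was present in 37.8% of the members with a promoter and 41.1% of all genes with one.

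In the rest of the pathway, 57 genes of 7 lists were tested, of which Usp14 rose, Nfe2l1 fell and 55 did not pass. The called genes were thus 2 of 57, close to the share of 3.42% among all tested genes. Usp14, a deubiquitinase that binds the base of the cap and trims ubiquitin chains, had 17146 and 17717 normalized reads in induced cells, against 12916 and 13818 in control cells. Both induced libraries were above both controls, and Usp14 rose by a log2 fold change of 0.38 (SE 0.06, limma adjusted p = 0.0388). Its adjusted p reached 0.167 over the alternatives, and the omission of any library ended the call (0.0531 without control replicate 2, the nearest). Its exons share 2169 bases with Thoc1, so reads there may be of either gene. The docking partner of Usp14 on the base is Psmd2, the member with the highest log2 fold change, which did not pass (limma adjusted p = 0.0644). A link between their changes was not tested. Fbxo7, the lowest of the 11 tested proteins associated with the particle, had a log2 fold change of -0.06 (limma adjusted p = 0.807).

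**Figure D4:**
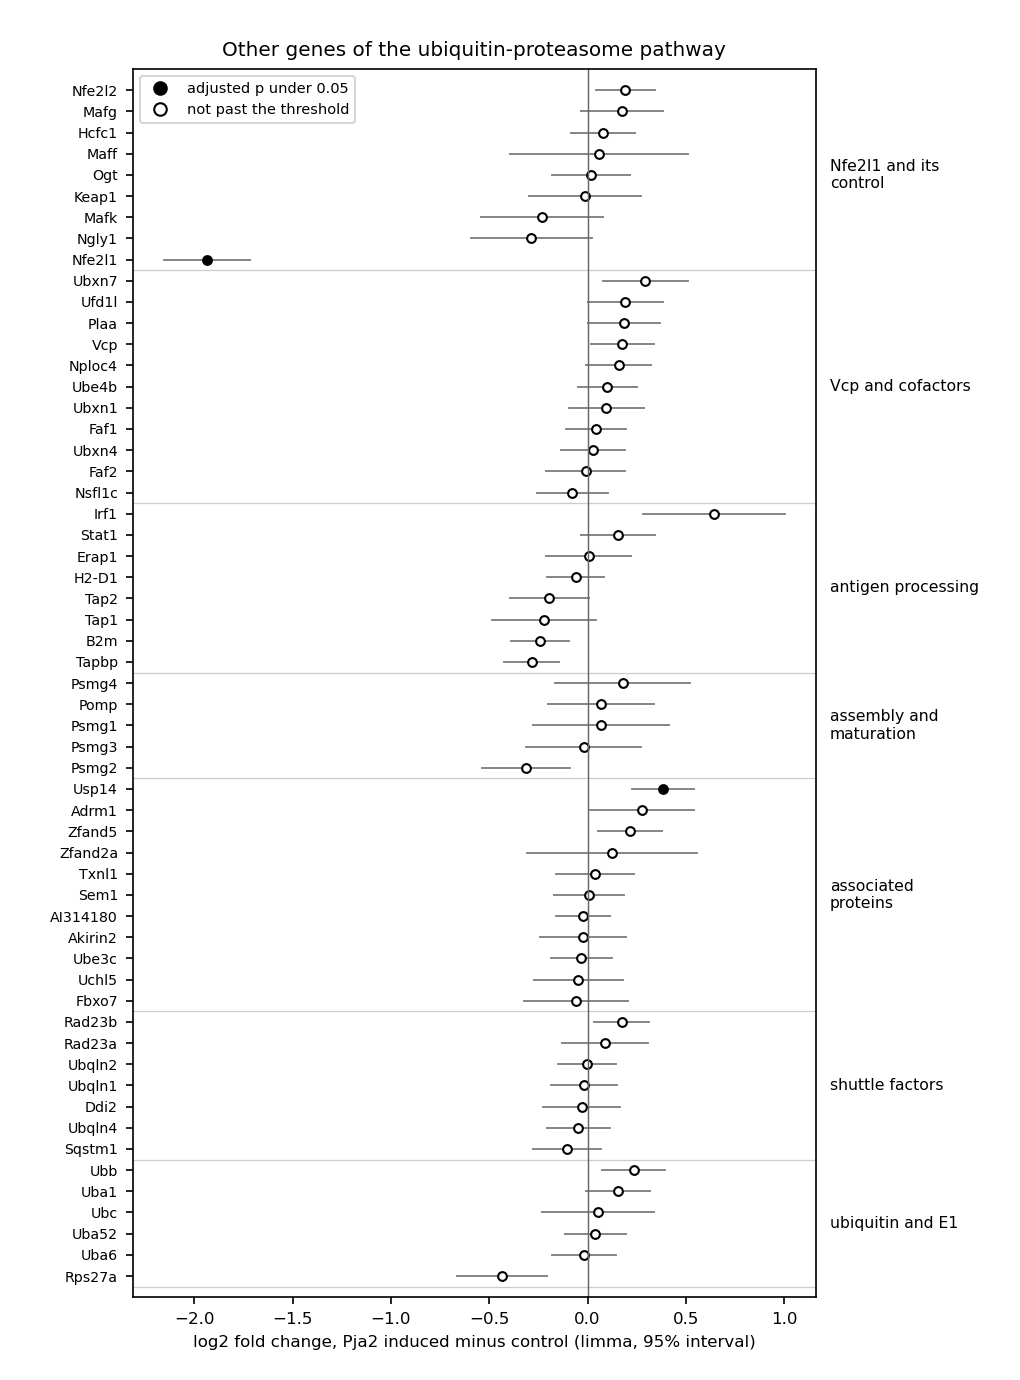
Log2 fold change, Pja2 induced minus control, with its 95% interval from limma, of the other tested genes of the ubiquitin-proteasome pathway, grouped by list. Filled points passed an adjusted p of 0.05: Nfe2l1 at -1.94 and Usp14 at 0.38.

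Assembly chaperones of the core had 0 of 5 genes called, with log2 fold changes around a median of 0.07. Psmg4 was the highest at 0.18 (limma adjusted p = 0.538), while Psmg2 had 837 and 909 normalized reads in induced cells, against 1065 and 1103 in control cells. Its groups did not overlap (log2 fold change -0.31, limma adjusted p = 0.148). Shuttle factors, which carry ubiquitinated proteins to the cap, had 0 of 7 called and a median of -0.02. Rad23b, at 0.17, and the autophagy receptor gene Sqstm1, at -0.10, were the ends of that list (limma adjusted p = 0.181 and 0.478).

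Of the 6 ubiquitin and ubiquitin-activating enzyme genes 0 were called. The polyubiquitin gene Ubb had 20259 and 19964 normalized reads in induced cells, against 17786 and 16416 in control cells (log2 fold change 0.24, limma adjusted p = 0.138). Rps27a, which encodes ubiquitin fused to a ribosomal protein, had 12082 and 10583 in induced cells and 14422 and 16227 in control cells (log2 fold change -0.44, limma adjusted p = 0.0731). Groups did not overlap in either gene, and the signs were opposite. Vcp, the ATPase that extracts ubiquitinated proteins for the proteasome, and its cofactors had 0 of 11 called, and their median was 0.10 on the log2 scale. Ubxn7 was the highest at 0.29 and Nsfl1c the lowest at -0.08 (limma adjusted p = 0.157 and 0.617).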

How the data were processed

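RNA of 4 libraries was analysed, 2 of induced and 2 of control HT-22 cells, grouped by their titles. The submitters' processing notes name HISAT, Cufflinks and mm9, without versions; for the counting tool and the scaling between libraries the sources used here name none. Per the labels' protocols the library kit was TruSeq RNA, which does not mark strand. The authors deposited log2 values, 1 column per library. Taken back to the linear scale, 100% of them fell on whole numbers of reads, to within 0.01 read, once a single factor per library was divided out. They are therefore log2(normalized reads + 1), and the reads behind them could be recovered. As the values are on a log2 scale, limma 3.58.1 in R 4.3.3 was run on them with a variance trend and no covariate, on the 13276 genes whose mean over the 4 libraries reached 1 CPM. The pseudocount of 1 understates changes of genes with few reads. P-values are two-sided, with Benjamini-Hochberg adjustment over all tested genes and a threshold of 0.05. The 95% intervals are not adjusted. The fit was tested on simulated data.

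The members and gene lists were chosen with earlier results of these data known. All members are accounted for. Values per library are given for members past the threshold, the catalytic subunits and the ends of each class, and other lists are given by called genes and their ends. Psmd1, Psmd3, Psmd5, Psmd11 and Psmd14 were given per library after their values were seen. Exon overlaps and transcript lengths come from GENCODE M21, on GRCm38. The alternatives were no filter and a filter of 5 CPM, a pseudocount of 5, TMM and total-read scaling, limma voom, a block on replicate number, and leaving out each library. Between the replicates of each group the counts differed by more than sampling noise, with a mean chi-square per gene of 15.9 in induced and 20.7 in control cells. Intervals cover the spread between libraries, and the limit of 3 reads covers counting error only.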

Additional observations from a re-analysis of the deposited data

How the results depend on the processing

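Over the 11 alternatives the 41 members had 0 calls, apart from Psmd2 without control replicate 2, so that the count of members called higher ran from 0 to 1 when a library was left out. The members' median log2 fold change ran from -0.0023 to 0.21 when a library was left out, was 0.09 without the members whose exons overlap another gene, a choice made after seeing the data, and stayed between 0.08 and 0.09 otherwise. Of all tested genes 100 were called higher and 59 lower without the filter. Leaving out a library gave 113 to 204 higher and 78 to 136 lower. With the replicate block, 157 were higher and 104 lower. Same-numbered libraries share only a number in the labels, and their deviations correlated at -0.095 over tested genes, so the block is no sign of pairing. Pathway genes called higher numbered 0 without the filter and 0 with the replicate block, where the Usp14 call ended (limma adjusted p = 0.0805 and 0.0899). Each left-out library also ended the Usp14 call, and the gene called higher without control replicate 1 was Irf1. The log2 ratio difference of Psmb8 to Psmb5 ran from -2.75 to 0.92 and that of Psmb10 to Psmb7 from -0.30 to 0.043, while that of Psmb9 to Psmb6 stayed below 0, at -1.30 to -0.60.

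Of the 41 members 23 kept the sign of their log2 fold change under the 11 alternatives, 19 above 0 and 4 below. The other 18 crossed 0 when a library was left out: Psmc3 (-0.0023 to 0.15), Psmc6 (-0.076 to 0.12), Psme2 (-0.10 to 0.060), Psmf1 (-0.059 to 0.024), Psma1 (-0.031 to 0.068), Psma2 (-0.14 to 0.0031), Psma5 (-0.019 to 0.16), Psma7 (-0.011 to 0.21), Psmd5 (-0.24 to 0.26), Psmd9 (-0.10 to 0.093), Psmd6 (-0.017 to 0.11), Psmd8 (-0.094 to 0.022), Psmd14 (-0.12 to 0.21), Psmb4 (-0.092 to 0.022), Psmb5 (-0.11 to 0.29), Psmb6 (-0.073 to 0.13), Psmb7 (-0.0055 to 0.17) and Psmb10 (-0.22 to 0.13). Psmd9 was also at 0.0041 with TMM scaling and Psmd5 at -0.0004 with limma voom. Fbxo7, no member, ran from -0.14 to 0.019. The cause was not tested. A pair of negative binomial count models that had been listed was not run, as the deposited values are on a log2 scale. Since the reads could be recovered, this was a choice, and limma voom was used on the recovered reads.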
